A study of Schizosaccharomyces pombe with 3 samples.

Results

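The 9 glucan synthase genes of fission yeast, Schizosaccharomyces pombe, were followed on 3 expression arrays of wild type cells. They were taken by name from the probe annotation, as the genes called bgs1, bgs2, bgs3, bgs4, ags1, mok11, mok12, mok13 and mok14, where ags1 is the gene also called mok1. All 9 were found, among 2896 fission yeast genes that the annotation named, and each was read by 1 Affymetrix probe set whose ID marked no probes shared between transcripts.

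The cells were an h+ strain carrying leu1-32, ade6-210 and ura4-DS/E, cultured in YEA broth, which is rich in nutrients, at 30 degrees. Every array carried this genotype and growth condition, so the series held 1 group of 3 samples and no condition was set against another. An h+ strain is of a single mating type, and fission yeast sporulates after cells of opposite mating type have fused. Nothing in the labels states that the 3 samples were separate cultures, so SDs and p-values cover only the differences among these arrays and may be purely technical.

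The fission yeast wall is built mainly of beta-glucan and alpha-glucan, polymers of glucose that are made by large enzymes in the plasma membrane and give the cell its shape. The wall at the cell ends and the division septum are made during growth and division, while a separate wall is laid around each spore after meiosis. Both enzyme families hold members for growth and members for the spore. Among beta-glucan synthases, Bgs1 makes the linear glucan of the primary septum, Bgs4 makes the main beta-glucan of the wall, Bgs3 is essential for growth, and Bgs2 acts in the spore wall. Among alpha-glucan synthases, Ags1 serves the growing wall and septum, Mok12, Mok13 and Mok14 act in the spore wall, and Mok11 is a further relative whose role is less defined and which is grouped here with the sporulation paralogues.

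Most of these genes, sporulation paralogues included, gave signal between the quartiles of all genes. Signals are deposited MAS5 intensities, and a value after ± is an SD over the 3 arrays. Throughout, all genes means the 2896 fission yeast genes that the annotation named. Another 5390 probe sets, controls included, had no gene in the annotation, so quartiles and percentiles hold for the named genes only. Mean log2 signal was 8.22 for the median gene, and the middle 50% of genes lay between 7.13 and 9.10. Of the 9 synthase genes, 6 lay above the median gene, as 50.0% of all genes do by definition, and 7 lay within the middle 50%. In the top 25% was 1 of the 9, bgs4, and in the bottom 25% was 1, mok12, where 25.0% of all genes lie in each. Probe brightness depends on probe sequence, so an order of genes by signal mixes transcript level with probe brightness and is given as a description.

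bgs4 gave the highest signal of the 4 vegetative synthases. Its signal was 649 on array 1, 643 on array 2 and 647 on array 3, a mean log2 signal of 9.34 ± 0.01 at percentile 81.5 of all genes. No other synthase gene reached these values on any array.

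ags1, the alpha-glucan synthase gene of growing cells, was next. Its signal was 500.4, 490.2 and 466 on arrays 1 to 3, a mean log2 signal of 8.92 ± 0.05 at percentile 70.4. bgs1, the septum gene, gave 346, 340.3 and 329, which is 8.40 ± 0.04 on the log2 scale and percentile 54.5. Array 3 gave the lowest value of both genes. bgs3 was the dimmest vegetative synthase, with signals of 260.02, 238 and 240.4, a mean log2 signal of 7.94 ± 0.07 and percentile 41.3. Its array 1 value stood above the other two, and all of its values lay below those of the other vegetative members.

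Of the sporulation paralogues, bgs2 gave the highest signal. bgs2 read 481, 489 and 471 on arrays 1 to 3, a mean log2 signal of 8.91 ± 0.03 at percentile 69.9. Its range overlapped that of ags1. The gene also carries the name meu21 in the gene table.

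mok14 and mok11 were near the middle of all genes. mok14 gave 422, 415 and 387, which is 8.67 ± 0.07 on the log2 scale and percentile 62.3. mok11 gave 311, 310.4 and 294, which is 8.25 ± 0.05 and percentile 50.8. Both were lowest on array 3, and every value of mok14 was above every value of mok11. mok13 gave 266, 269.5 and 263, a mean log2 signal of 8.06 ± 0.02 at percentile 44.4.

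mok12 stood apart from the other synthase genes. Its signal was 76.0 on array 1, 65.1 on array 2 and 77.6 on array 3, a mean log2 signal of 6.18 ± 0.14 at percentile 14.4. All of its values lay below those of every other synthase gene, and its SD was the largest of the 9. The next gene up, bgs3, was higher than mok12 by 1.76 ± 0.12 on the log2 scale.

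**Figure D1:**
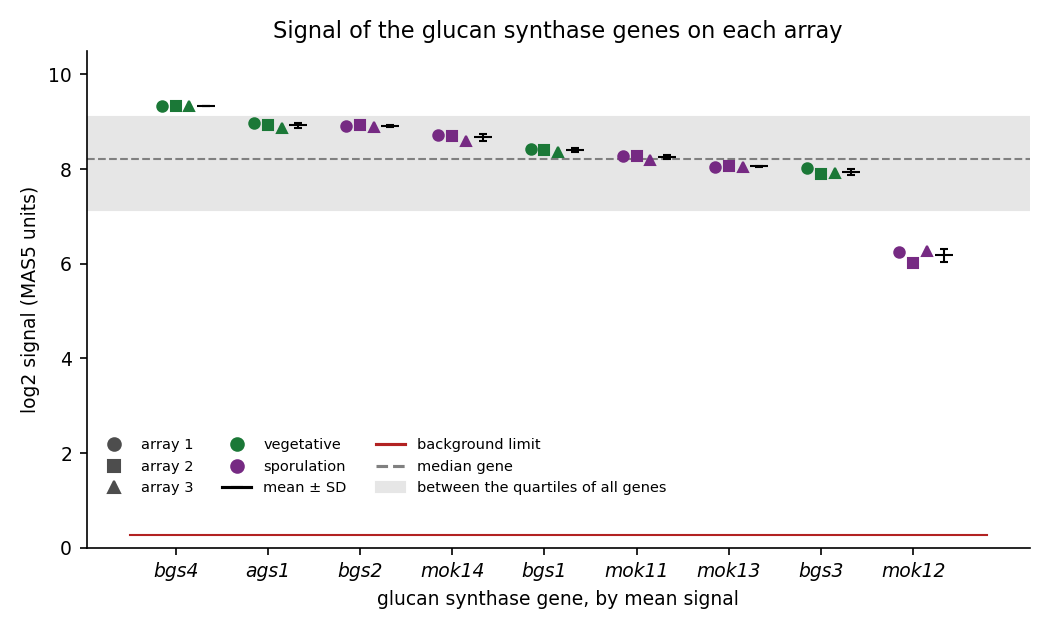
Log2 signal (y axis, MAS5 units) of each glucan synthase gene (x axis, by mean signal) on arrays 1, 2 and 3, with vegetative genes in green, sporulation genes in purple and the mean ± SD in black; the grey band is the middle 50% of all genes, between the quartiles, the dashed line the median gene and the red line the mean background limit of the 3 arrays. Green and purple genes are mixed along the order, and mok12, at 6.18, is the only one under the grey band.

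In order of mean signal the genes ran bgs4, ags1, bgs2, mok14, bgs1, mok11, mok13, bgs3 and mok12, so the classes were interleaved. Of the 8 neighbouring pairs in this order, 7 had ranges over the arrays that did not overlap. The exception was ags1 and bgs2, which differed by 0.02 ± 0.04 on the log2 scale, with ags1 higher on arrays 1 and 2 and bgs2 higher on array 3. Without array 1, bgs2 ranked above ags1. The closest pair without overlap, mok13 and bgs3, differed by 0.11 ± 0.07. The share of such pairs among other genes was not computed, so whether the 7 pairs are particular to the synthases was not tested.

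All 9 synthase genes were above background, as were 99.9% of the genes tested, so this count says nothing particular about them. The background limit on each array was the 95th percentile of 2601 probe sets of another yeast on the same arrays, a log2 signal of 0.27, 0.31 and 0.24. The synthase genes exceeded it by 5.91 (mok12) to 9.06 (bgs4) on the log2 scale. The adjusted p was 8.62e-12 for mok12 and at most 2.23e-13 for the other genes (limma with Benjamini-Hochberg adjustment over all genes). These p-values draw on a variance shared across genes.

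Within the beta-glucan family, the sporulation gene bgs2 lay between the vegetative genes. The log2 signal of bgs4 exceeded that of bgs2 by 0.43, 0.39 and 0.46 on arrays 1 to 3, a mean of 0.43 ± 0.03 or 1.35-fold. The septum gene bgs1 was under bgs2 on every array, with a bgs1 minus bgs2 difference of -0.48, -0.52 and -0.52 and a mean of -0.51 ± 0.03. For bgs3 the difference from bgs2 was -0.89, -1.04 and -0.97, a mean of -0.96 ± 0.08, so bgs2 gave 1.95-fold the signal of bgs3. The mean of the 3 vegetative genes minus bgs2 was -0.31, -0.39 and -0.34, with a mean of -0.35 ± 0.04.

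Within the alpha-glucan family, ags1 gave more signal than each of its sporulation paralogues on every array. The gap was smallest to mok14, at 0.25 ± 0.02 on the log2 scale or 1.19-fold. It was 0.67 ± 0.01 or 1.59-fold to mok11, and 0.87 ± 0.04 or 1.82-fold to mok13. The gap to mok12 was 2.72, 2.91 and 2.59 on arrays 1 to 3, a mean of 2.74 ± 0.16 or 6.68-fold. ags1 minus the mean of the 4 mok genes was 1.13 ± 0.04, and it was 0.60 ± 0.02 with mok12 left out.

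**Figure D2:**
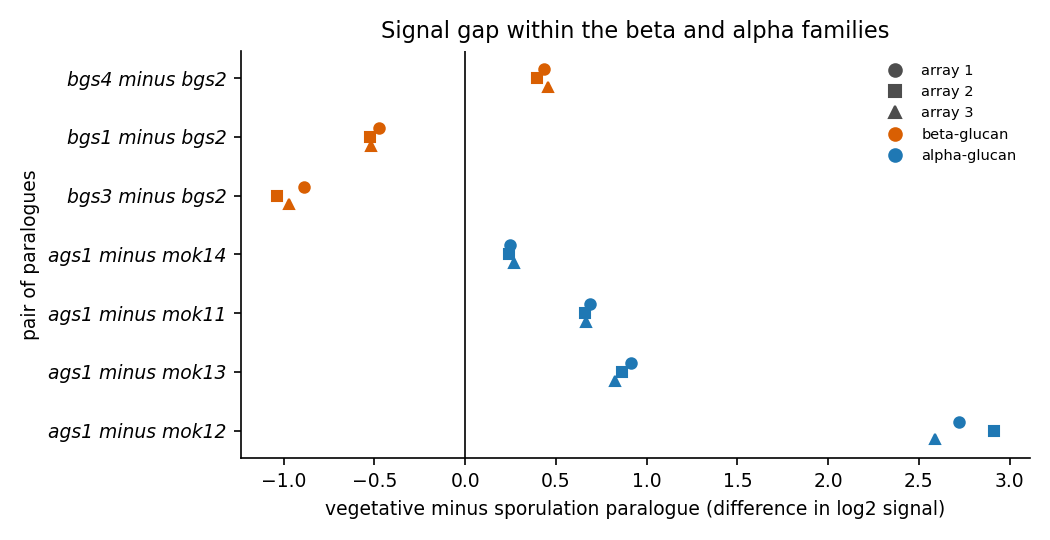
Difference in log2 signal (x axis) between a vegetative and a sporulation paralogue of the same family (y axis, 7 pairs), with 1 point per array and the beta family in orange and the alpha family in blue. In 5 pairs the vegetative gene is higher on every array, and in the other 2, bgs1 and bgs3 against bgs2, it is lower on every array. The pairs are not independent, since every alpha pair holds ags1 and every beta pair holds bgs2.

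Over both families, the median log2 signal of the 4 vegetative genes exceeded that of the 5 sporulation genes by 0.41 ± 0.01, or 1.33-fold. This SD covers the spread between arrays and not that between genes. Gene means spanned 1.39 on the log2 scale in the vegetative class and 2.72 in the sporulation class. The gap was 0.20 ± 0.02 when mok12 was left out. The medians were 8.66 for the vegetative and 8.25 for the sporulation genes. The sporulation median is the value of mok11, whose role is less defined, and the gap without mok11 was not computed. These gaps are between different probe sets, so they were not tested.

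The sporulation paralogues were then set beside other genes of sporulation and of the spore wall. The cells were an h+ strain, of a single mating type, in rich YEA broth, and whether any were in meiosis was not tested. Of 22 listed genes, 19 were measured, meaning that the annotation named a probe set for each alone. Their median log2 signal was 6.70, and 13 of the 19 fell into the bottom 25% while 1 reached the top 25%. The lowest were mei4, which encodes the forkhead transcription factor of middle meiosis, at 2.87 ± 0.12, and meu10, a spore wall gene, at 3.47 ± 0.03. The spore coat gene isp3, named here after its value was seen, gave 4.39 ± 0.04. The genes in the bottom 25% also include cta3, a cation-transporting ATPase gene, at 3.50 ± 0.07. They include spo9, an isoprenoid synthesis gene, at 6.79 ± 0.11, and both were named after their values were seen. The highest were spo20, a phosphatidylinositol transfer protein gene also used in growth, at 9.14 ± 0.07, and spo14, a secretory pathway gene, at 8.64 ± 0.03. Next came spo15, at 8.56 ± 0.02, spo3, at 8.21 ± 0.02, and spo6, at 8.09 ± 0.07, also named after their values were seen. Of the 19 genes, 3 lay above the median gene, where 50.0% of all genes lie by definition. All 19 passed the background limit (limma), as did 99.9% of all genes, so that count is not particular to them. In whole-culture RNA, few cells with much of a transcript and many cells with little cannot be told apart, and the part of sporulating cells in the signal of bgs2 and the mok genes was not tested.

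Enzymes that remodel glucan were spread widely around the synthases. Of 20 listed genes, 17 were measured, with a median of 8.28; the top 25% held 3 of them and the bottom 25% held 4. The brightest were gas2, at 10.31 ± 0.03, and gas1, at 9.70 ± 0.03, which encode beta-glucanosyltransferases that elongate glucan chains. The dimmest were meu17, at 4.19 ± 0.22, and the alpha-amylase homologue gene meu7, at 5.40 ± 0.11. Members of this list that act in the spore or ascus wall or are named for meiotic expression, picked out after their values were seen, lay on both sides of the median gene. The beta-glucanosyltransferase gene gas4 gave 8.85 ± 0.05, the alpha-glucanase gene agn2 gave 8.50 ± 0.03 and the beta-glucanase gene eng2 gave 8.28 ± 0.06. The alpha-amylase homologue gene mde5 gave 6.47 ± 0.09 and lay in the bottom 25%, as did meu7 and meu17. The sporulation synthases were likewise on both sides, with bgs2, mok14 and mok11 above the median gene and mok13 and mok12 below it.

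Regulators of the synthases had a median log2 signal of 7.29 over 21 measured of 24 listed genes, where the 9 synthase genes had a median of 8.40 and all genes one of 8.22. None was in the top 25% and 9 were in the bottom 25%. The highest was rho1, which encodes the GTPase that activates beta-glucan synthase, at 8.77 ± 0.08, followed by rga8, a GTPase-activating protein gene, at 8.61 ± 0.01. The lowest were wsc1, a cell wall stress sensor gene, at 3.39 ± 0.05, and rga2, another GTPase-activating protein gene, at 3.73 ± 0.23. rho1 lay below bgs4, ags1 and bgs2 and above the other 6 synthase genes in mean signal.

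The remaining lists covered other wall polymers and septation. For chitin, galactomannan and protein mannosylation 39 gene names were listed, some genes under more than 1 name. Of these genes 28 were measured, with a median of 7.60, and the top 25% held 1 and the bottom 25% held 11. The protein mannosyltransferase gene ogm2 gave 9.61 ± 0.01 and anp1, of a mannosyltransferase complex, gave 8.98 ± 0.04, while the mannosyltransferase gene och1 gave 3.93 ± 0.08 and pvg5 gave 3.40 ± 0.31. Of 14 septation genes, 13 were measured, with a median of 6.70, and the top 25% held 0 and the bottom 25% held 8. The anillin-like gene mid2 gave 8.70 ± 0.08 and the MADS-box gene mbx1 gave 8.69 ± 0.15, while the F-BAR ring gene cdc15 gave 5.38 ± 0.03 and adg3 gave 5.10 ± 0.14. The septum synthase bgs1, at 8.40, thus had a lower mean signal than mid2 and mbx1 and a higher one than cdc15 and adg3. All 98 measured genes of the 5 lists passed the background limit (limma), as did 99.9% of all genes.

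**Figure D3:**
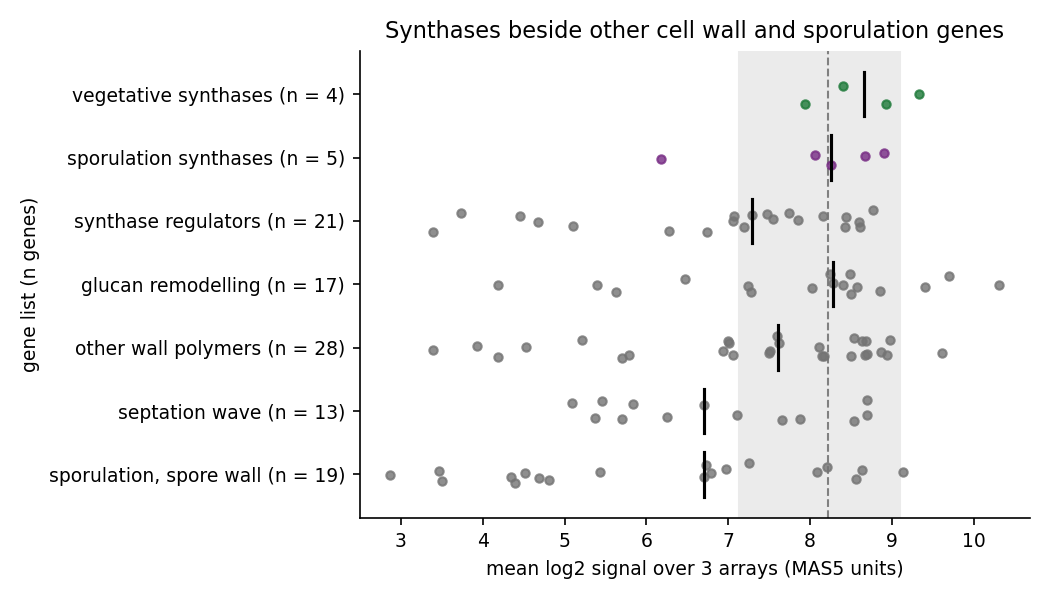
Mean log2 signal over 3 arrays (x axis, MAS5 units) of the vegetative and sporulation synthase genes and of 5 lists of wall and sporulation genes (y axis), 1 point per gene, with black bars at the medians, a grey band for the middle 50% of all genes and a dashed line at the median gene. The sporulation synthases have a median of 8.25, the value of mok11, close to the median gene at 8.22. The list of other sporulation genes has a median of 6.70.

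The synthase genes were measured closely on the 3 arrays. Their SDs ran from 0.01 for bgs4 to 0.14 for mok12, with a median of 0.05, where the median SD of all genes was 0.06. The whole range over arrays was at most 0.25 on the log2 scale, for mok12. Array 3 gave the lowest value of 6 of the 9 genes, namely ags1, bgs2, mok14, bgs1, mok11 and mok13, and array 2 that of the others, while 34.0% of all genes were lowest on array 3. The median deviation of the synthase genes from their own means was 0.03 on array 1, 0.01 on array 2 and -0.03 on array 3, against 0.01 for all genes on array 3. With quantile normalization 5 of the 9 were lowest on array 3, against 30.1% of all genes, and with median centring 6 of the 9, against 28.1%. The arrays were not tested against one another.

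**Figure D4:**
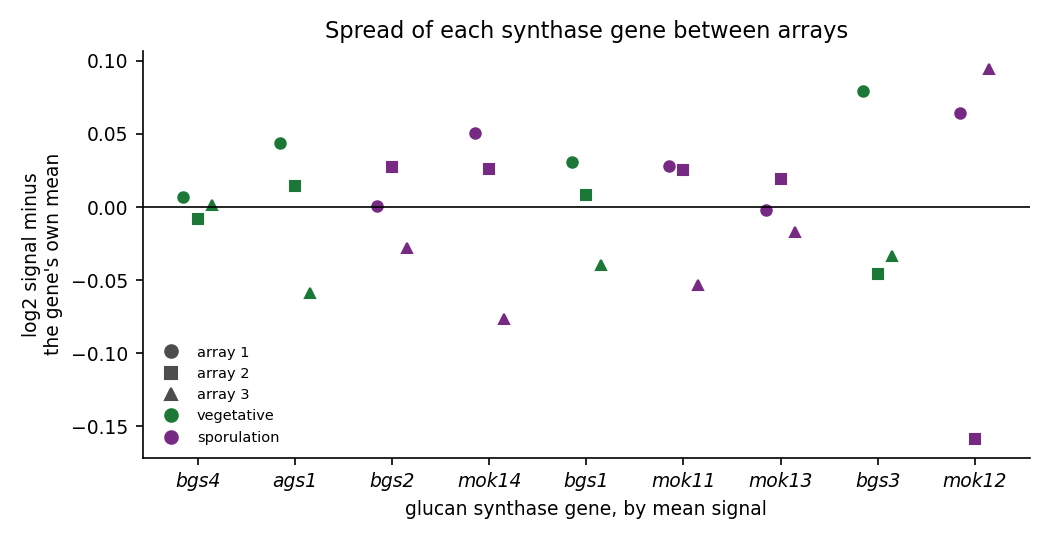
Log2 signal of each synthase gene minus its own mean over the arrays (y axis), by gene in order of mean signal (x axis), with 1 symbol per array and vegetative genes in green and sporulation genes in purple. All genes but mok12 stay within 0.08 of their mean, array 3 is lowest for 6 of the 9 genes, and mok12 is lower on array 2.

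The genes most like each synthase were taken as those with the smallest Euclidean distance in log2 signal over the 3 arrays, a measure that mainly matches level. The closest match of all was vps29 to bgs1, at a distance of 0.01, followed for bgs1 by gas5 at 0.03. For bgs4 they were atp16 and zip1, for bgs3 vps41 and ubc1, for ags1 bio2 and plb1, and for bgs2 arp2 and plb1, at distances of 0.02 to 0.05. For the mok genes they were usp103 and din1 (mok11), dic1 and cig2 (mok12), mug58 and psi1 (mok13), and rsc4 and omh2 (mok14), at distances of 0.03 to 0.08. ags1 and bgs2 thus shared plb1, a phospholipase gene, as a near match.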

How the data were processed

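The authors deposited 1 signal intensity per probe set on a linear scale, made with MAS 5.0 per the labels' design text and the submitters' processing notes; its scaling target and filters are not given in the sources used here. With 2% trimmed off both ends, the 10928 intensities averaged 150.0 on each of the 3 arrays, so values were turned into log2 with no further normalization. Depth has no meaning for arrays, and the 3 arrays limit the precision.

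Probe sets were named from the platform annotation, and symbols were updated through gene identifiers with the RefSeq table of assembly ASM294v3, which gave 2914 probe sets of 2896 genes. Where a gene had several probe sets, their log2 values were averaged. Of the named probe sets, 5518 had 1 gene and 20 had several; 3 had fission yeast style symbols but identifiers outside the table and were left out, and 2601 with identifiers outside the fission yeast table and capitalised symbols were taken as another yeast. The other 5390 had no gene in the annotation, controls included. Coordinates are not printed, since the array data name no build or probe positions.

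Log2 signal minus the array's background limit was tested against 0 with limma 3.58.1 in R 4.3.3 (intercept, eBayes, two-sided, Benjamini-Hochberg, threshold 0.05), after a test on simulated data. Gaps between genes and gene lists were described without tests. The text names all synthase genes, the 2 highest and 2 lowest genes of each list and the 2 nearest genes of each synthase, with exceptions marked. The members and lists were chosen with earlier results of these data known. The sporulation list also holds cta3, a cation-transporting ATPase gene, and spo9, an isoprenoid synthesis gene. Planned protein and promoter features and probe sets for budding yeast glucan synthases were not analysed here. Alternatives were median centring, quantile normalization, a pseudocount of 16, leaving out each array, the highest probe set, no shared probe sets, limits at the 90th and 99th percentiles, and leaving out genes under the limit.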

Additional observations from a re-analysis of the deposited data

How the results depend on the processing

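All 9 synthase genes and all 98 listed genes stayed above background under every alternative run, and the count over all genes ran from 2890 to 2895 against 2894. The vegetative minus sporulation gap over both families ran from 0.405 to 0.417 when each array was left out, that of the beta family from -0.366 to -0.326 and that of the alpha family from 1.11 to 1.16. A pseudocount of 16, which compresses low signals by construction, gave gaps of 0.39 over both families and 1.05 for the alpha family. Leaving out mok12, chosen after seeing the data, gave 0.20 and 0.60. No gap changed sign under any alternative run on the gaps. Median centring shifts all genes of an array alike, so it could not move a gap, and the alternatives on the background limit were not run on the gaps. The order of the 9 genes changed only without array 1, where ags1 and bgs2 changed places. Each synthase gene has 1 probe set, so the alternatives on probe sets could not move its value. No paired analysis was possible because the series has 1 group.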

Other observations

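In the gene order of the RefSeq table, the 9 synthase genes have 18 neighbouring coding genes, of which 11 were measured. The others, including those beside bgs2 and mok14, had no probe set named for them alone in the annotation. This does not show that the array lacks probes for them. bgs3 lies next to gas1, the beta-glucanosyltransferase gene, which gave 9.70 ± 0.03 against 7.94 for bgs3. mok11 lies next to aah2, an alpha-amylase homologue gene, at 5.63 ± 0.03, and sft2, a Golgi transport gene, at 8.21 ± 0.04. mok12, the dimmest synthase gene, lies between act1, the actin gene, at 9.62 ± 0.02, and alg2, a mannosyltransferase gene of N-glycosylation, at 8.76 ± 0.02. ags1 lies between mug112, at 4.11 ± 0.18, and spf30, at 7.04 ± 0.06, and mok13 between the helicase gene dna2, at 7.78 ± 0.09, and the zinc transporter gene zrt1, at 9.001 ± 0.05. bgs1 lies next to mbx1, a MADS-box transcription factor gene, at 8.69 ± 0.15, and bgs4 next to mog1, at 7.72 ± 0.09. These are values side by side, with no test.

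Every one of the 9 synthase genes is overlapped by at least 1 non-coding gene in that table, as are 77.1% of the 2890 measured protein-coding genes, and 3 of the 9 by a coding gene, against 42.7%. The files do not give the positions or strand of the probes, so signal of a synthase gene and of an overlapping transcript cannot be told apart.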
